A study of Mus musculus with 12 samples.

Results

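Venus-low T follicular helper (Tfh) cells from immunized lymph nodes were compared with naive CD4 T cells from spleen. The comparison rests on 5 of the 12 arrays of the study, 3 of Venus-low Tfh cells and 2 of naive CD4 T cells, and the arrays were chosen by their labels alone. All donors were S1pr2V/+ mice, with 1 modified S1pr2 allele, and the gates use the fluorescent protein Venus. Venus-low Tfh cells were sorted as CD4+ Dump- cells that were CXCR5+, high for PD1 and CD44, and low for Venus, from pooled lymph node cells of 4, 6 and 4 mice for the 3 arrays. The labels do not list the antibodies of the Dump channel. Subcutaneous CGG in CFA had been given to these mice 10 days earlier. Naive cells were sorted as CD4+ Dump- cells low for CD44, with 1 further surface marker in the gate, from pooled splenocytes of 2 mice for each of the 2 arrays. The sample labels give these spleen donors the same immunization, while the series design also speaks of control mice. Each array was hybridized with labelled RNA amplified from 20 ng of total RNA. Tissue and cell state differ together in this comparison, so lymph node against spleen and Tfh against naive cannot be told apart. Pools were also smaller for the naive cells, so pool size runs with the comparison too. Fewer cells of a type in a sorted pool and less RNA per cell also cannot be told apart in such bulk samples. Nothing in the labels says which mice were shared between arrays. The p-values rest on the spread between arrays within each of 5 sorted populations, over all 12 arrays. That spread holds differences between the array sets described below as well as between pools of mice.

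Naive CD4 T cells recirculate between blood and lymphoid organs through CCR7 and are kept alive by IL-7. After antigen contact some become Tfh cells, which lose CCR7, gain the B cell follicle receptor CXCR5, depend on the transcription factor Bcl6 and help B cells through IL-21, IL-4 and CD40 ligand. S1PR2, a sphingosine-1-phosphate receptor that restrains migration, is known to mark Tfh cells that reside in germinal centres, and the Venus gates divide the CXCR5+ PD1-high cells by that reporter.

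Values are log2 array signals, and in every list of values the order is Venus-low arrays 1, 2 and 3, then naive arrays 1 and 2. A gene was represented by 1 probe set and was tested if it reached log2 5 on at least 2 of the 12 arrays, which left 9893 genes. By their signal quantiles the 12 arrays fell into 3 sets: Venus-low 1 lay with naive 1 in set 1, Venus-low 2 with naive 2 in set 2, and Venus-low 3 in set 3, which held no naive array. The upper quartile was 8.50 to 8.55 in set 1, 8.68 to 8.76 in set 2 and 9.39 to 9.41 in set 3. A probe set was counted as displaced where 1 array set lay over 3 log2 units from both others, and 698 of the tested genes were measured by such a probe set. Over all probe sets on the arrays, 3315 were displaced in set 2, 542 in set 1 and 234 in set 3, and how this arose was not tested. No gene chosen by the naming rule or added to it is given from a displaced probe set, but Hmmr, Cd44, Maf, P2rx7, Il21, Rora, Il2rb, Smad7, Mcm3, Bach2, Satb1 and Tox have another probe set that was displaced.

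At an adjusted p under 0.05 (limma, Benjamini-Hochberg over all tested genes), 1312 genes differed between Venus-low Tfh and naive CD4 T cells, 13.3% of those tested. Of these, 951 (9.61%) were higher and 361 (3.65%) lower in Venus-low Tfh cells, a share of 72.5% higher. The median difference over all genes was 0.18. With the array set as a term, that median became -0.03 and 4145 genes (41.9%) passed, 2049 (20.7%) higher and 2096 (21.2%) lower, a share of 49.4% higher. The median SE was 0.449 without that term and 0.174 with it. Quantile normalization over the 12 arrays gave a share of 57.4% higher, and centring each array on its median gave 53.2%. All 1312 calls were also made in the same direction with the array set as a term, and 1311 of them were on probe sets not displaced, with the same sign in set 1 and in set 2. Both checks use arrays that also made the calls, so this agreement partly follows from the selection. The excess of rises over falls thus differs with the scaling, while the direction of the 1312 called genes was the same with the set term. Among the 951 rises, 373 genes lay below log2 5 on both naive arrays. Such genes entered the test through arrays on which they were high. The count of calls was 762 without naive 1 and 746 without naive 2. With 3 arrays against 2, the groups did not overlap for 3429 of the 9893 tested genes. A lack of overlap alone is therefore no call.

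**Figure D1:**
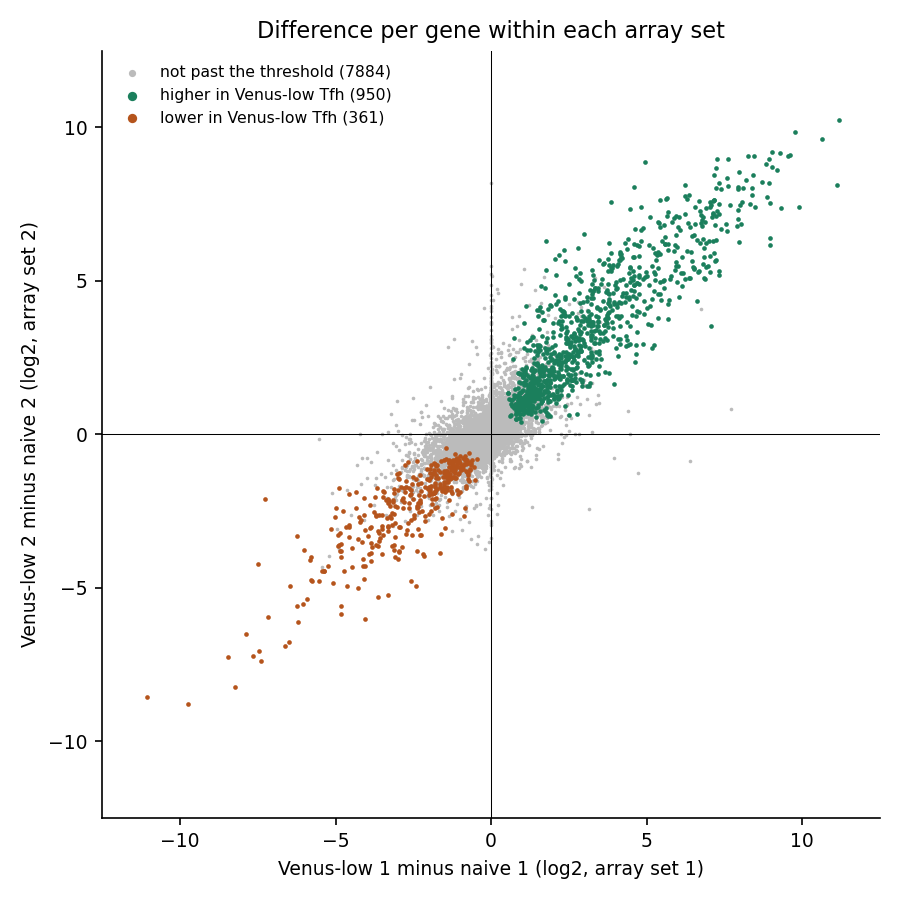
Each point is 1 of 9195 tested genes whose probe set was not displaced, placed by Venus-low 1 minus naive 1 (horizontal, log2) and Venus-low 2 minus naive 2 (vertical, log2); green and orange points passed the test on all arrays in the higher and lower direction. All coloured points lie in the upper right or lower left quadrant, which partly follows from their selection, since these arrays also made the calls. Over all genes shown the sign was the same in both sets for 6799 (73.9%).

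The genes behind the gates followed the labels. They are not findings, since the cells were sorted on their proteins or reporter. Cxcr5 differed by 10.83 ± 0.43 (difference of group means ± SE), Pdcd1, which encodes PD1, by 8.52 ± 0.51, Cd44 by 5.62 ± 0.66 and S1pr2 by 3.90 ± 0.38. Cd4 itself read 13.59, 13.88 and 14.36 against 13.04 and 13.68. Its difference of 0.58 did not pass (adjusted p = 0.390, limma), and the groups overlapped. None of the 13 measured pan T cell genes passed in either direction (limma; 0 at an unadjusted p under 0.05, and 3 higher with the array set as a term). Cd3d lay between 14.78 and 15.09 on all 5 arrays.

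Lag3, Nkg7 and Adam8, the markers given for Venus-low Tfh cells in this comparison, were all higher than in naive cells. Lag3 encodes an inhibitory receptor that binds MHC class II and read 11.12, 10.44 and 12.10 against 2.19 and 2.23. Every Venus-low array lay far above both naive arrays, which were at the bottom of the scale. The difference was 9.01 ± 0.70 (adjusted p = 7.05e-05, limma), at least 74.5-fold when naive values below log2 5 are taken as 5. Within set 1 it was 8.92 and within set 2 it was 8.20.

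Nkg7, a granule membrane protein of cytotoxic lymphocytes, read 7.57, 9.76 and 11.02 against 2.14 and 2.13. The groups did not overlap, but the Venus-low arrays spread over more than 3 log2 units. The difference was 7.31 ± 1.39 (adjusted p = 0.00837, limma), at least 21.8-fold. Without either naive array the adjusted p was 0.0576 (without naive 1) or 0.0596 (without naive 2). Adam8, a membrane-bound metalloprotease, read 4.97, 8.92 and 8.45 against 2.92 and 3.22. Venus-low array 1 stood apart from the other Venus-low arrays and below log2 5. The difference was 4.37 ± 0.99 (adjusted p = 0.0200, limma), at least 5.45-fold, and it was 2.04 within set 1 and 5.70 within set 2. When values below log2 5 were set to 5 before the test, the call of Adam8 was lost. It was also lost in fits of the 5 arrays only, without or with the replicate number as a block, and with pool size as a covariate. Leaving out Venus-low 2, Venus-low 3, naive 1 or naive 2 gave adjusted p-values of 0.0531, 0.0653, 0.118 and 0.0958.

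**Figure D2:**
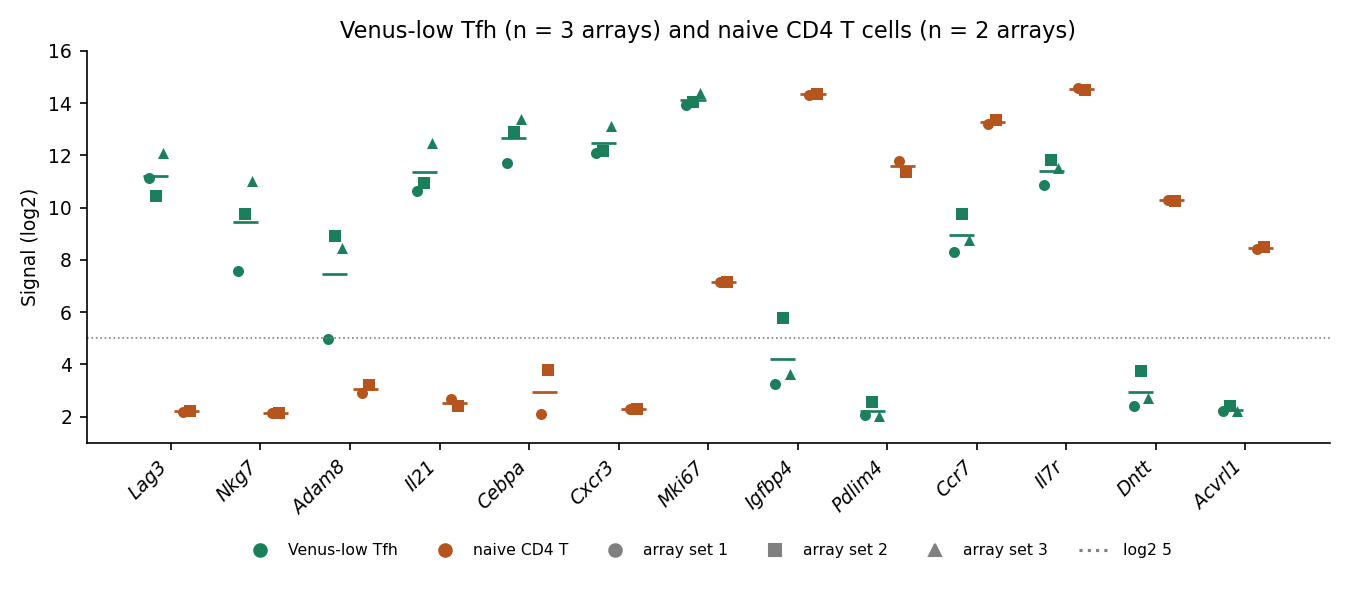
Signal (log2, vertical) of 13 genes on each Venus-low Tfh array (green) and each naive CD4 T array (orange); symbols mark the array set, short lines the group means and the dotted line log2 5. For each of the 13 genes the groups do not overlap; Adam8 on Venus-low array 1, at 4.97, is the value closest to its naive arrays among the rises.

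The 12 largest rises by the naming rule, ranked after values below log2 5 were set to 5, held S100a6, S100a4, Igkv8-30, Stx11, Cebpa, Cxcr3, Nusap1, Cd83, Ccnb2, Ncapg, Cdca5 and Hmmr. Their differences ran from 7.27 for Ncapg to 10.24 for S100a6. S100a6 and S100a4 are small calcium-binding proteins of motile and memory lymphocytes. S100a6 read 13.88, 14.07 and 14.31 against 3.24 and 4.45, and S100a4 read 14.68, 14.87 and 15.03 against 3.57 and 6.76. Both groups were narrow for S100a6, whereas the naive arrays differed by over 3 log2 units for S100a4. Stx11, a syntaxin needed for granule release by cytotoxic lymphocytes, rose by 7.68 ± 0.63 (adjusted p = 9.36e-05, limma). The 5 mitosis genes among them are described with the cell cycle.

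Of 24 measured transcription factors linked to Tfh cells, 14 rose and none fell (58.3% called, against 13.3% of all genes tested). Their median difference was 2.53. Cebpa, a basic leucine zipper factor best known from myeloid cells, read 11.70, 12.88 and 13.40 against 2.08 and 3.78. All Venus-low arrays were above log2 11 and both naive arrays below 5, a difference of 9.73 ± 0.72 (adjusted p = 5.88e-05, limma), at least 203-fold. Bhlhe40, a helix-loop-helix repressor induced on activation, rose by 8.58 ± 0.88. Ascl2, a helix-loop-helix factor that induces CXCR5, read 9.47, 7.83 and 10.58 against 2.48 and 2.36, a rise of 6.87 ± 0.66. Maf, which drives IL-21 and IL-4, rose by 5.89 ± 0.56, and Irf4, a factor of antigen-receptor strength, by 3.71 ± 0.52.

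Bcl6, the lineage-defining repressor, started from a high level in naive cells on its representing probe set and read 14.45, 13.82 and 14.28 against 12.01 and 12.11. The groups were clearly separate, and the rise was 2.12 ± 0.24 (adjusted p = 0.000498, limma). Another probe set of Bcl6 read 8.212, 9.315 and 9.955 against 2.886 and 4.102, a difference of 5.667. Its naive level and the size of its rise thus differ with the probe set. Members that did not pass included Prdm1, the repressor that opposes Bcl6, at 4.01, 7.01 and 8.61 against 5.20 and 5.20. The Venus-low arrays lay on both sides of the naive ones for Prdm1. Tox, a nuclear factor of chronic stimulation, read 10.72, 11.48 and 13.09 against 8.91 and 9.74 and did not pass either (adjusted p = 0.112, limma), although the groups did not overlap.

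Of 25 measured Tfh surface and signalling genes (median difference 1.68), 56% were called, against 13.3% of all genes tested. Of these, 14 rose and none fell, with 8 rises without naive 1. They included Rgs16, a regulator of G protein signalling, at 5.95 ± 0.58, Gpm6b, a membrane proteolipid, at 5.33 ± 0.64, the ATP receptor P2rx7 at 4.18 ± 0.59 and Tnfsf8, the ligand of CD30, at 3.67 ± 0.49. Icos, the costimulatory receptor that sustains Tfh cells, read 14.42, 14.36 and 14.72 against 12.85 and 12.38. The groups were clearly separate, by 1.89 ± 0.35 (adjusted p = 0.00755, limma; 0.0755 without naive 2). Cd200 rose by 2.62 ± 0.66 and Sh2d1a, the adaptor SAP of SLAM receptors, by 1.94 ± 0.48. Their calls were lost without Venus-low 2, Venus-low 3, naive 1 or naive 2, with adjusted p-values up to 0.236 and 0.206. Cd40lg read 5.47, 7.31 and 9.51 against 4.15 and 6.58, overlapping between the groups, and did not pass (adjusted p = 0.478, limma).

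Secreted helper factors were among the genes with the widest gaps. Of 28 members on the array 16 were measured, and the others did not reach log2 5 on at least 2 arrays. Of the 16, 9 rose and none fell (56.2% called, against 13.3% of all genes tested), with a median difference of 5.11. On both naive arrays 12 of the 16 lay below log2 5. They entered the test through arrays of other groups, so direction and median partly follow from the filter. Il21, the cytokine that drives germinal centre B cells, read 10.63, 10.95 and 12.47 against 2.68 and 2.39. Il4, which directs switching to IgG1 and IgE, read 10.64, 10.98 and 12.30 against 3.03 and 2.01. In both genes the 3 Venus-low arrays lay far above the naive arrays. Il21 rose by 8.82 ± 0.64 and Il4 by 8.79 ± 0.74, at least 81.8-fold and 79.3-fold. Tnfsf11, which encodes RANK ligand, rose by 8.31 ± 0.89, and Penk, the enkephalin precursor, by 8.51 ± 1.36. Ifng, the type 1 cytokine, read 7.01, 8.50 and 9.70 against 2.85 and 2.81, a rise of 5.58 ± 1.07 (adjusted p = 0.00895, limma). This call was lost without naive 1 or naive 2. Il2, Tnf, Lta, Ltb, Tgfb1, Ccl5 and Cxcl10 did not pass.

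In the list of inhibitory receptors and related genes, which includes Lag3, 7 of 14 measured members were higher and 1 lower. That is 57.1% called, against 13.3% of all genes tested, with a median difference of 3.13. On both naive arrays 6 of the 14 lay below log2 5, so direction and median partly follow from the filter. Lgals3, a galectin, read 10.52, 11.32 and 10.62 against 2.25 and 2.24, a rise of 8.58 ± 0.35 (adjusted p = 1.89e-06, limma). Cd160, a receptor of HVEM, rose by 6.68 ± 0.53. Ctla4, which competes with CD28 for its ligands, read 10.66, 11.82 and 12.84 against 7.66 and 5.28 and rose by 5.30 ± 0.99, with an adjusted p of 0.0769 without naive 2. Lair1, a collagen receptor, was the member that fell, by 2.77, a call lost without Venus-low 1, Venus-low 2 or naive 1. Havcr2, the gene of TIM-3, read 2.18, 7.04 and 7.59 against 2.18 and 2.17. Venus-low array 1 lay at the naive level, and the gene did not pass (adjusted p = 0.168, limma).

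Of 28 measured genes of the cytotoxic granule and Th1 list, 12 rose and none fell. That is 42.9% called, against 13.3% of all genes tested, with a median of 1.86. Of 26 members with probe sets not displaced, 10 lay below log2 5 on both naive arrays. Direction and median thus partly follow from the filter. Besides Nkg7, the members with the largest rises were S100a6, Cxcr3, S100a4 and Anxa2, which are not granule components: S100 proteins and annexin A2 bind calcium, and Cxcr3 is a chemokine receptor of Th1 cells. Anxa2 rose by 6.85 ± 0.66. Gzma, the granule protease granzyme A, did rise, from 2.43 and 2.76 to 9.77, 7.95 and 8.56. By contrast, Gzmb, granzyme B, read 2.06, 6.59 and 6.67 against 2.06 and 2.07, and Tbx21, the Th1 master factor T-bet, read 2.21, 7.32 and 5.41 against 2.18 and 2.17. Neither gene passed (adjusted p = 0.340 and 0.246, limma). For both, Venus-low array 1 lay at the naive level and the other Venus-low arrays well above it. Array 1 was thus the lowest Venus-low array for Nkg7, Adam8, Havcr2, Gzmb and Tbx21, while Gzma was highest on that array; the part of differing sorts or array sets in this was not tested. Runx3, a factor of cytotoxic lineages, read 9.59, 10.00 and 10.73 against 10.92 and 10.66, overlapping between the groups.

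The Th17 and IL-1 receptor list had 9 of 12 measured members higher and none lower (75% called, against 13.3% of all genes tested). The median difference was 5.92. Of 16 members on the array the others, Il17a among them, did not reach log2 5 on at least 2 arrays. Among members with probe sets not displaced, 6 lay below log2 5 on both naive arrays. Such members entered the test through other groups, so direction and median partly follow from the filter. The 9 calls were kept in number when any of the 5 arrays was left out. Il1r2, the decoy receptor of IL-1, read 11.68, 11.19 and 12.64 against 2.12 and 2.12. The naive arrays were identical to 2 decimals and the Venus-low arrays at least 9 log2 units higher, a rise of 9.72 ± 0.46 (adjusted p = 4.34e-06, limma), at least 114-fold. Its signalling counterpart Il1r1 rose by 6.94 ± 1.07. Ccr6, the receptor of CCL20, read 11.45, 11.44 and 12.14 against 2.61 and 2.65, a rise of 9.05 ± 1.08. Rora, a nuclear receptor, and Ahr, the aryl hydrocarbon receptor, both factors of Th17 cells, rose by 6.11 ± 0.60 and 6.74 ± 1.21, and Tmem176a, a membrane protein of Th17 cells, by 5.73 ± 0.39.

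Genes typical of regulatory T cells were part of the difference as well. The 23 measured members had a median of 2.91, and 43.5% were called, against 13.3% of all genes tested. Of these, 10 rose and none fell, with 6 rises without naive 2. They included Cd83, an activation marker, at 7.47 ± 0.71, Ebi3, a cytokine subunit, at 6.68 ± 1.38, Ctla4, and the semaphorin receptor Nrp1 at 5.06 ± 0.41. Without naive 1 or naive 2 the adjusted p of Ebi3 was 0.0872 and 0.0700. Ikzf2, which encodes Helios, read 12.79, 13.51 and 13.85 against 9.01 and 9.16. Foxp3, the factor that defines the lineage, read 11.16, 10.71 and 11.13 against 10.14 and 8.22. The groups did not overlap for Foxp3, but its difference of 1.82 ± 0.52 just missed the threshold (adjusted p = 0.0510, limma; 0.00511 with the array set as a term). Gpr83, another gene of regulatory T cells, lay on the other side, at 8.08, 8.40 and 8.68 against 10.65 and 10.46 (adjusted p = 0.0585, limma). The summed level of the 23 genes was 15.91 to 16.78 on the Venus-low arrays and 14.04 to 14.07 on the naive arrays, and the part of regulatory cells inside the gates was not tested.

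Adam8 was 1 of 6 members of the protease list that rose, of 16 measured, and none fell (median 1.17). That is 37.5% called, against 13.3% of all genes tested. Adam12 read 5.95, 7.73 and 9.69 against 2.14 and 2.20, a rise of 5.62 ± 1.35, and Adam9 and Adam19, also membrane metalloproteases, rose by 3.94 ± 1.07 and 3.16 ± 0.87. These calls rest on few arrays: all 6 were lost without naive 2, and 2 remained without Venus-low 2, without Venus-low 3 or without naive 1. Adam10 and Adam17, the main sheddases of T cells, did not pass.

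Integrins and adhesion genes went both ways, 4 of 22 measured members higher and 3 lower (31.8% called, against 13.3% of all genes tested). Their median of 0.12 turned negative under quantile normalization, centring and array weights, so no direction is given for the list, and with any 1 array left out 2 rises were called. Itgb1, the common chain of VLA integrins, read 10.52, 11.65 and 12.26 against 6.40 and 5.96, a rise of 5.30 ± 0.78. Itgae, the CD103 chain, rose by 6.35 ± 1.56, and Alcam by 4.15 ± 1.06. Their adjusted p-values were up to 0.140 and 0.223 with 1 array left out. Itgb3 fell by 3.95, from 12.48 and 12.62 to 8.20, 9.22 and 8.40.

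Among 16 measured chemokine and homing receptors, 3 rose and 2 fell (31.2% called, against 13.3% of all genes tested). Cxcr3, the receptor of CXCL9 and CXCL10, read 12.08, 12.16 and 13.14 against 2.31 and 2.30, a rise of 10.16 ± 1.18, at least 176-fold. Cxcr6, the receptor of CXCL16, rose by 8.46 ± 1.01, from 3.09 and 2.97 to a Venus-low mean of 11.49. Ccr7, the lymph node homing receptor of naive cells, fell by 4.34 (SE 0.45, adjusted p = 0.000342, limma). It read 8.31, 9.76 and 8.77 against 13.21 and 13.36, so it was far below naive cells yet well above log2 5 on all Venus-low arrays. S1pr1, which guides T cells out of lymphoid tissue, read 3.96, 6.34 and 5.74 against 8.51 and 9.70 and fell by 3.76 (adjusted p = 0.00555, limma; 0.0607 without naive 2).

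Genes of the naive, quiescent state were lower as a group. Of 47 measured members, 21 fell and none rose (median -1.31), 44.7% called against 13.3% of all genes tested. With the array set as a term 37 fell and 1 rose. The count of falls was 11 without naive 1 and 10 without naive 2. Igfbp4, which binds insulin-like growth factors and is a marker gene of naive CD4 T cells, read 3.23, 5.78 and 3.62 against 14.31 and 14.36. It went from near the top of the scale to near its bottom, a fall of 10.12 on the log2 scale (SE 0.99, adjusted p = 0.000221, limma). Pdlim4, a PDZ and LIM domain protein, read 2.05, 2.57 and 2.04 against 11.79 and 11.37, at least 95.8-fold lower. Amigo2, an adhesion molecule, read 2.25, 2.35 and 2.29 against 9.93 and 9.57.

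Other members kept a clear signal. Il7r, the IL-7 receptor chain, fell by 3.13 (SE 0.43), from 14.56 and 14.50 to 10.86, 11.82 and 11.52. Klf2, the factor that maintains S1pr1, fell by 2.96 (SE 0.81), and its adjusted p of 0.0453 rose to between 0.0638 and 0.217 with any of the 5 arrays left out. Bach2 and Satb1, repressors that restrain effector genes, fell by 3.88 and 1.57. Bach2 lost its call with any 1 of the 5 arrays left out (adjusted p up to 0.307), and Satb1 without naive 1 or naive 2 (0.0858 and 0.108). Lef1, the partner of TCF-1 in naive cells, read 11.48, 12.31 and 12.88 against 13.22 and 13.83. Each Venus-low array lay below both naive arrays, but the difference of -1.30 did not pass (adjusted p = 0.126, limma; 0.000101 with the array set as a term).

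The largest falls outside that list by the same rule were Myo6, Ampd1, Dntt, Ggt5, Adcy6 and Lypd6b. Ampd1, the AMP deaminase, read 2.18, 2.23 and 2.04 against 10.42 and 10.46, the tightest of these (SE 0.18, adjusted p = 1.05e-07, limma), and at least 43.3-fold lower. Dntt, the terminal transferase of developing lymphocytes, read 2.41, 3.75 and 2.71 against 10.31 and 10.25. Myo6, an unconventional myosin, fell by 7.72 and Adcy6, an adenylate cyclase, by 5.99. In all of these genes the Venus-low arrays were below log2 5 and the naive arrays above 9.

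Of 20 measured genes of IL-2, IL-7 and STAT5 signalling, 1 rose and 3 fell (median -0.77). That is 20% called, against 13.3% of all genes tested. Il2rb, the beta chain shared by the IL-2 and IL-15 receptors, read 13.28, 13.28 and 13.38 against 9.86 and 9.58, a rise of 3.60 ± 0.28. Il4ra, the IL-4 receptor chain, read 8.67, 9.16 and 9.07 against 12.16 and 12.25 and fell by 3.24. Il4 rose and Il4ra fell on the same arrays. Il2ra, the high-affinity IL-2 receptor chain, read 6.26, 10.69 and 10.08 against 6.87 and 7.67 and did not pass, with Venus-low array 1 below both naive arrays. Of 18 TGF-beta family receptors and Smads, none rose and 3 fell, 16.7% against 13.3% of all genes tested. Acvrl1, the receptor ALK1, read 2.20, 2.39 and 2.21 against 8.41 and 8.51, a fall of 6.19 (SE 0.36, adjusted p = 1.78e-05, limma). Another probe set of Acvrl1 differed by -6.25. Acvr1b, the activin receptor ALK4, fell by 1.56, while Tgfbr1 and Tgfbr2, the TGF-beta receptors themselves, did not pass.

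The T cell receptor response list had 11 of 39 measured members higher and 1 lower (median 1.08). That is 30.8% called, against 13.3% of all genes tested. Without naive 1 or naive 2 the count of rises was 5. Dusp4, a MAP kinase phosphatase, read 6.91, 8.42 and 9.57 against 2.45 and 3.44, a rise of 5.35 ± 0.83, and Rnf128, the anergy-linked ubiquitin ligase GRAIL, rose by 5.03 ± 0.74. Egr2, a factor induced by receptor signalling, read 13.12, 12.98 and 13.53 against 9.93 and 11.03. The early gene Nr4a1 read 6.74, 9.08 and 9.99 against 6.54 and 8.50, with overlapping groups (adjusted p = 0.660, limma).

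**Figure D3:**
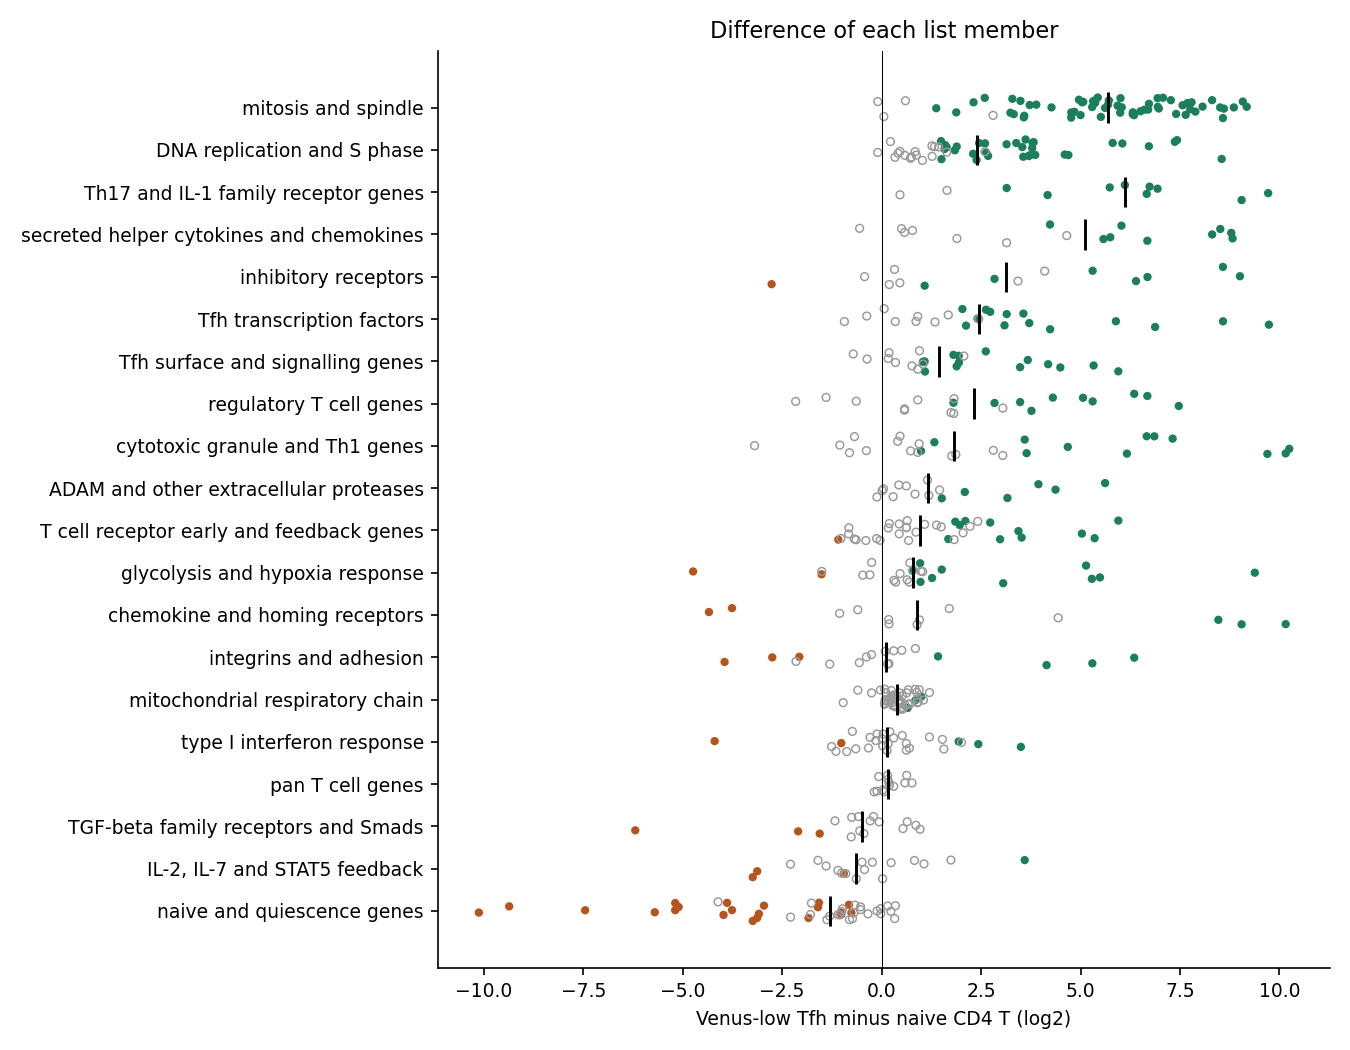
Difference between Venus-low Tfh and naive CD4 T cells (log2, horizontal) of each measured member of 20 lists whose probe set was not displaced; filled green and orange points passed the test in the higher and lower direction, open points did not, vertical bars are medians of the points shown, and vertical scatter within a list has no meaning. Mitosis genes lie almost wholly to the right, with 60 members filled, and the naive list holds the longest tail to the left.

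Where a list is described with no member rising or no member falling, the same direction held 0 members at an unadjusted p under 0.05 (limma), except 1 lower in the cytotoxic and in the regulatory T cell list, 1 higher in the TGF-beta list and 2 lower in the Bcl2 list.

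Cell division genes had the largest share of calls among the pathway lists. Of 66 measured genes of mitosis and the spindle, 60 rose and none fell, 90.9% of the list against 9.61% of all genes tested, with a median difference of 5.65. Without naive 1 the count was 47, and the other single-array omissions gave 50 to 60. On the level scale, over the members whose probe set was not displaced, the median lay at 10.97 in Venus-low cells and 4.21 in naive cells, and 34 members were below log2 5 on both naive arrays. These 34 entered the test through arrays of other groups, so direction, share and median partly follow from the filter. Mki67, the proliferation marker Ki-67, read 13.92, 14.06 and 14.39 against 7.15 and 7.15. Cdk1, the kinase that starts mitosis, read 11.24, 11.30 and 12.37 against 3.04 and 3.02. Both genes were tight within the groups and rose by 6.97 ± 0.48 and 8.60 ± 0.74.

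Cdca5, the cohesion factor sororin, had the smallest adjusted p among the named mitotic genes: it read 12.16, 11.67 and 12.29 against 3.23 and 2.69 (9.08 ± 0.38, adjusted p = 2.27e-06, limma). Nusap1 and Hmmr, which organize the spindle, Ccnb2, a mitotic cyclin, and Ncapg, a condensin subunit, rose by 8.85, 9.18, 8.07 and 7.27. The members that did not pass with probe sets not displaced were Bub3, Cenpa, Pttg1 and Smc4.

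The S phase genes moved in the same direction by less. Of 50 measured genes of DNA replication, 32 rose and none fell (64% called, against 13.3% of all genes tested). The median difference was 2.42. Over the members with probe sets not displaced, the median level was 11.40 in Venus-low and 9.01 in naive cells. Tk1, thymidine kinase, read 9.89, 11.19 and 11.79 against 2.61 and 2.20, a rise of 8.55 ± 1.24. Cdc6, which loads the replicative helicase, rose by 7.42 ± 0.89, and Gins2, a subunit of the active helicase, by 7.37 ± 0.95. Mcm3, a helicase subunit, read 12.38, 12.61 and 12.89 against 9.89 and 10.46, a smaller rise of 2.45 ± 0.31 from a higher naive level. Pcna, Dnmt1, Mcm4 and Mcm7 did not pass.

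The promoters of these 2 lists were searched because their members moved together. Cell cycle genes that peak in mitosis are known to carry a cell cycle homology region (CHR) near a CCAAT box, and genes of S phase E2F sites. In the 250 bases before the start, on both strands, the letters TTTGAA or TTCGAA (CHR), CCAAT, and TTTCCCGC, TTTGGCGC, TTTCGCGC or TTTGCCGC (E2F) were searched; no motif contains another. RefSeq promoters (GRCm38.p6) were matched by symbol for 54 of the 66 mitosis genes (57 promoters) and 42 of the 50 replication genes (50 promoters). Stretches of 150 bases before the start follow, with matches in capitals. They were chosen for holding motifs and do not stand for the lists as a whole. Called members were taken by rank, and those without CHR and CCAAT letters (mitosis) or an E2F match (replication) were passed over. Those of Mki67 (chr7:135716380-135716529, minus strand), Prc1 (chr7:80294326-80294475, plus strand) and Cdk1 (chr10:69352913-69353062, minus strand) hold CHR and CCAAT letters, and that of Cdk1 also an E2F match. Those of Cdc6 (chr11:98908001-98908150, plus strand) and Pola1 (chrX:93632156-93632305, minus strand) hold an E2F match, and that of Pola1 also CCAAT letters.
Mki67: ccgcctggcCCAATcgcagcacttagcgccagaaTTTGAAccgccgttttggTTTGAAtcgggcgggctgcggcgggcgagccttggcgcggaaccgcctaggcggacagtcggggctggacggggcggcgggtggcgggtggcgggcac
Prc1: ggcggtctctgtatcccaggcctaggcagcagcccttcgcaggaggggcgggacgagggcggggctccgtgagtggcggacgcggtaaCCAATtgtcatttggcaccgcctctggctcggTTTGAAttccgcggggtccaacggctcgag
Cdk1: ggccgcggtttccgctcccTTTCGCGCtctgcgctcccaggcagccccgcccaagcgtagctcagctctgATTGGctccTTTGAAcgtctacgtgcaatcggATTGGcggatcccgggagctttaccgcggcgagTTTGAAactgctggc
Cdc6: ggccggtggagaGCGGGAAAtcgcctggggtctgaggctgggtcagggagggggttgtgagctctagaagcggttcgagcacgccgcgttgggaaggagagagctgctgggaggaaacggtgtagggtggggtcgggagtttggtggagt
Pola1: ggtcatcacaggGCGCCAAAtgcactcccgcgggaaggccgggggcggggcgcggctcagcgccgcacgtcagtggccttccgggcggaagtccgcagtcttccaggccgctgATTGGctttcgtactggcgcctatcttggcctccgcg

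CHR letters were present in 40.4% of the mitosis promoters, 20.0% of the replication promoters and 17.1% of all 32851 promoters in the table. CCAAT was found in 71.9%, 62.0% and 33.8%, and both together in 36.8%, 18.0% and 6.02%. An E2F match was found in 3.51% of the mitosis promoters, 24.0% of the replication promoters and 1.86% of all. Among the 10346 promoters matched to genes tested, the shares were 12.2% for CHR, 35.7% for CCAAT, 4.62% for both and 3.41% for E2F, so the mitosis list was near that level for E2F. In the 60 promoters matched to the naive list these shares were 11.7% for CHR, 40.0% for CCAAT and 0.0% for E2F. These are matches of letters and not shown binding. Among the genes printed, Prc1, which bundles the central spindle, rose by 6.72 ± 0.50, and Pola1, the catalytic chain of DNA polymerase alpha, by 3.86 ± 0.48.

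Of 25 measured glycolysis and hypoxia genes, 10 rose and 2 fell (median 0.78), 48% against 13.3% of all genes tested, with 4 rises without naive 1 and 5 without naive 2. Egln3, an oxygen sensor induced by hypoxia, read 11.55, 11.45 and 11.96 against 2.25 and 2.30, a rise of 9.38 ± 0.29 (adjusted p = 4.42e-07, limma), at least 101-fold. Hk2, hexokinase 2, rose by 5.14 ± 0.93 (adjusted p = 0.00643, limma; 0.0602 without naive 2), and Slc16a3, a lactate exporter, by 5.28 ± 0.62. Ldha, lactate dehydrogenase, was near the top of the scale in both groups, at 14.48, 14.56 and 14.93 against 14.30 and 14.31, and did not pass. Among 55 respiratory chain genes 3 passed, all higher, 5.45% against 13.3% of all genes; 1 call was left without Venus-low 2 and none without any other single array (10 members had an unadjusted p under 0.05 with all arrays, limma). Ndufb9, a complex I subunit, was the largest at 1.00 ± 0.24.

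A further 3 lists had medians whose sign changed with the scaling and shares of calls near the 13.3% of all genes tested: 14.3% for cholesterol and lipid genes, 16.7% for interferon genes and 11.8% for the Bcl2 family. Of 21 cholesterol and lipid genes 3 rose (1 without naive 1), led by Fabp5, a fatty acid carrier, at 2.48 ± 0.37. Of 30 type I interferon genes 3 rose and 2 fell (2 and 0 without naive 1). Mx1, an antiviral GTPase, read 11.28, 11.80 and 11.89 against 7.90 and 8.41, whereas Oas2 read 2.18, 5.33 and 5.86 against 7.99 and 9.32, a fall whose adjusted p was 0.0651 without naive 1 and 0.174 without naive 2. Of 17 genes of the Bcl2 family and death receptors 2 rose, and none without naive 1. Bcl2, the survival factor downstream of IL-7, read 10.73, 10.49 and 12.11 against 13.50 and 13.30. The groups did not overlap for Bcl2, as for 3429 of the 9893 tested genes. Its difference of -2.29 did not pass (adjusted p = 0.0769, and 0.000458 with the array set as a term, limma).

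Markers of other cell types were present in part. Of 22 B cell markers on the array, 16 lay below log2 5 on all 5 arrays, among them the defining Cd79a, Ms4a1 and Pax5, and the summed level was 13.04 to 13.66 on the Venus-low and 13.06 to 13.89 on the naive arrays. Cd22, a sialic acid receptor known from B cells, nevertheless read 12.28, 10.60 and 11.66 against 2.39 and 3.18, and Cd74, the invariant chain of MHC class II, rose by 5.12 ± 1.06 (adjusted p = 0.0130, limma; 0.110 without naive 1). Cd72 fell by 2.65. Igkv8-30, an immunoglobulin kappa variable gene among the 12 rises above, read 12.63, 12.48 and 14.20 against a naive mean of 5.28. The probe set that represented Ighm, the IgM heavy chain, read 12.75, 12.22 and 12.65 against 13.66 and 12.66 and did not pass. Of its 11 probe sets 4 lay below log2 5 on all 5 arrays, 2 (the representing one included) were high in both groups, and 5 were higher in Venus-low cells by 9.16 to 11.6. The B cell sum rests largely on the representing probe set, and without Ighm it was 11.84 to 12.67 on the Venus-low and 11.03 to 11.16 on the naive arrays. The Ighm probe sets therefore disagree, and immunoglobulin signal was seen beside B cell markers at the bottom of the scale. The part of B cell RNA in the rises of Cd22, Cd74 and Igkv8-30 was not tested.

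For CD8, NK and gamma delta T cells 11 of 15 markers lay below log2 5 on all 5 arrays, Cd8a and Ncr1 included. The summed level was 10.79 to 12.06 on the Venus-low arrays against 9.62 to 9.96 on the naive arrays. The first rested mainly on Cd160, at 11.01, 10.63 and 11.94, and the second on Klrd1. Klrd1, the NK receptor CD94, fell, reading 3.66, 4.99 and 5.93 against 9.45 and 9.73. For myeloid cells 23 of 25 markers were below log2 5, with sums of 8.65 to 9.15 against 7.55 to 7.76. Cd68, a lysosomal protein and the only myeloid marker at log2 5 or more on a Venus-low array, rose by 4.51 ± 0.37. Red cell and platelet markers were the reverse: 10 of 12 were below log2 5 (Hba-a2 and Hbb-b2, measured by displaced probe sets, were left out), with sums of 5.69 to 6.12 against 8.97 to 8.98 on the spleen arrays. The naive sums rested on Gata1 and Car2, the only members at log2 5 or more on any of the 5 arrays. Gata1, the erythroid and megakaryocyte factor, read 2.40, 4.31 and 2.13 against 8.41 and 8.08. Car2 read 2.42, 2.51 and 2.18 against 6.70 and 7.51. Alas2, Klf1, Pf4 and Ppbp lay at the bottom of the scale in both groups. Stromal markers, 12 of 15 below log2 5, summed to 7.46 to 8.29 against 8.34 to 8.43. The part of other cells in the genes above was not tested.

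The other sorted populations place these differences. PD1-low helper cells (PD1-low Th, 2 arrays) are CD44-high CD4+ cells low for CXCR5 and PD1, and Venus-high Tfh cells (3 arrays) share the Venus-low gate except for high Venus; both came from lymph nodes of S1pr2V/+ mice immunized in the same way. Both comparisons use the same Venus-low arrays as the comparison with naive cells. Against PD1-low cells 993 genes (10.0%) passed, and against Venus-high Tfh cells 130 (1.31%). With the array set as a term the counts were 3669 (37.1%) and 1671 (16.9%). The count against Venus-high Tfh cells was 33 without Venus-low 2, 61 without Venus-low 3 and 85 without either naive array, so calls between the Tfh gates rest on few arrays.

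Several genes that were low in Venus-low Tfh cells were high in PD1-low cells of the lymph node. Mean levels in PD1-low cells were 13.79 for Igfbp4, 11.58 for Pdlim4, 11.62 for Dntt, 9.71 for Ampd1, 8.97 for Acvrl1 and 13.24 for Ccr7. Each lay far nearer to the naive than to the Venus-low mean, and each differed from Venus-low Tfh cells (adjusted p between 2.33e-07 for Ampd1 and 0.000484 for Ccr7, limma). Gata1 was at 8.99 in PD1-low cells too, so its high level was not limited to the spleen samples.

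The rises differed in their levels in PD1-low cells. Il21, Il4, Cebpa, Il1r2 and Lgals3 had means of 2.53, 2.12, 3.54, 2.62 and 2.24 in PD1-low cells and passed there as well, as did Mki67 at 8.66 and Cdk1 at 4.29. Cd83, Ctla4, Nrp1 and Ikzf2 had PD1-low means of 11.23, 11.21, 12.20 and 12.66 and did not pass against them. With the array set as a term Cd83, Nrp1 and Ikzf2 did pass, higher in Venus-low cells (adjusted p = 0.00257, 0.0179 and 0.0218, limma), and Ctla4 did not (0.444). For Cd44 the PD1-low mean was 11.78. These genes were thus at a high level in both CD44-high populations.

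The 3 markers had different levels across the other populations. Lag3 had a mean of 4.40 in PD1-low and 12.42 in Venus-high Tfh cells; Venus-low cells differed from the first (adjusted p = 0.000401, limma) but did not pass against the second (adjusted p = 0.675, limma). With the array set as a term Lag3 was lower in Venus-low than in Venus-high cells, by -1.20 (adjusted p = 0.0352, limma). Nkg7 was 2.02 and Adam8 2.47 in Venus-high Tfh cells, at the naive level, and both were higher in Venus-low cells (adjusted p = 0.0269 and 0.0337, limma). Against PD1-low cells, with means of 4.74 and 3.59, Adam8 passed (adjusted p = 0.0415, limma) and Nkg7 did not (0.0718), while with the array set as a term Nkg7 passed too (0.0152). In PD1-intermediate Th cells, the CXCR5+ cells with intermediate PD1 (2 arrays), the means were 10.24 for Lag3, 8.06 for Nkg7 and 4.59 for Adam8. Other genes that separated the Tfh gates were Ccr7, 3.71 in Venus-high cells (adjusted p = 0.00127, limma), Il7r at 8.13 (0.00715), Itgb3 at 3.37 (0.00389), Foxp3 at 6.00 (0.00183) and Runx3 at 4.72 (0.000571). For all 5 the Venus-low mean was higher than the Venus-high mean. S1pr2, the reporter gene, was higher in Venus-high cells, at 12.89 (adjusted p = 0.0105).

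**Figure D4:**
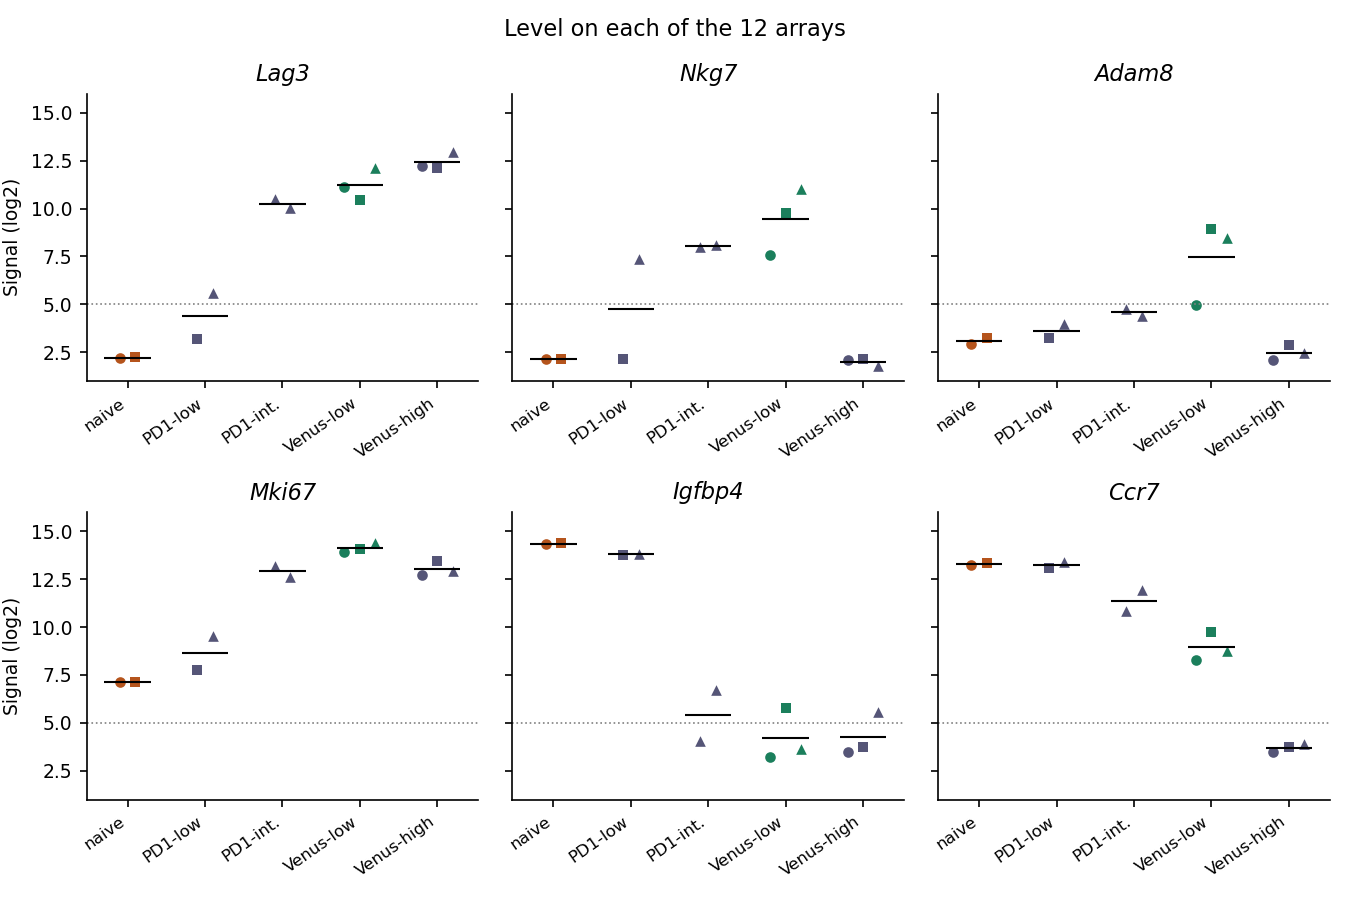
Signal (log2, vertical) of 6 genes on each of the 12 arrays by sorted population (horizontal, PD1-int. is PD1-intermediate); symbols mark the array set as circle (1), square (2) and triangle (3), lines are group means and the dotted line is log2 5. Nkg7 and Adam8 are at the naive level in Venus-high Tfh cells. In Venus-low cells Nkg7 is high on all arrays, while Adam8 on Venus-low array 1, at 4.97, is below log2 5. Ccr7 has an intermediate mean in Venus-low cells.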

How the data were processed

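The authors deposited log2 signals of 45101 probe sets on 12 arrays, made with GCRMA per the submitters' processing notes; its version, and which arrays were normalized together, are not given in the sources used here. Probe sets were named from GEO's platform annotation: 34958 had 1 gene symbol, 932 several and 9211 none, and only the first were used. Each gene was measured by its probe set of highest mean over 12 arrays among those at log2 5 or more on at least 2 arrays. No signal on an array is a count, and the number of arrays limits the precision. The log2 values as deposited were fitted with limma 3.58.1 (R 4.3.3) over 5 groups (7 residual degrees of freedom), with eBayes and Benjamini-Hochberg adjustment over 9893 genes. The array set was added as a term as an alternative (5 residual degrees of freedom), as within-set values are. The fit was tested on simulated data, with the spread left after group and array set. In these data 200 genes were changed, fewer than the 1312 called in the comparison, so the shares below hold for that setting only. It called 1% of genes changed by 1 log2 unit and 60% of those changed by 3. With the array set as a term the shares were 58% and 91%. False calls numbered 0 without that term and 7 with it. A gene that did not pass is thus not shown to be unchanged.

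Named genes were the 12 largest rises and falls after values were floored at log2 5, taken from called genes with no overlap between the groups' arrays, 1 sign in both sets and no displaced probe set, plus up to 4 such members per list, the markers and the gate genes. Further genes (among them Foxp3, Ikzf2, Gzmb, Gzma, Tbx21, Runx3, Mki67, Cdk1, Prc1, Pola1, Mcm3, Prdm1, Tox, Havcr2, Lair1, Klf2, Bach2, Satb1, Bcl2, Il1r1, Ahr, Ifng, Il2ra, Amigo2, Egr2, Nr4a1, Gpr83, Ldha and Ighm) were chosen after their values were seen. The members and all lists were chosen with earlier results of these data known. Replicate numbers 1 and 2 are shared by both groups, which gives only 2 pairs. A marker of the naive gate is not reported here.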

Additional observations from a re-analysis of the deposited data

How the results depend on the processing

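Each result was recomputed under 25 other settings. Of 123 named genes past the threshold, 53 kept their call under all settings in which they could be tested, and none of the 123 changed sign. Genes called against naive CD4 T cells (1312) numbered 2010 after quantile normalization over 12 arrays, 646 in a fit of the 5 arrays only, 4145 with the array set as a fixed term, 4104 with it as a random block, 452 without the 4 arrays of set 2, and 3876 with the set term and without genes that have any displaced probe set, an alternative added after seeing the data. Leaving out 1 array gave 746 to 1208, the lowest being 762 without naive 1 and 746 without naive 2. Against PD1-low cells (993) the same settings gave 1641, 3669, 3696, 232 and 3444, the fit of 5 arrays not applying. Against Venus-high Tfh cells (130) they gave 412, 1671, 1808, 0 and 1607; the 0 stands beside 615 genes at an unadjusted p under 0.05 (limma). Median centring gave 324 there, array weights 2593, and leaving out 1 array 33 to 152 (33 without Venus-low 2, 61 without Venus-low 3). List members called (247) numbered 386 and 393 with the array set as a fixed and random term and 113 without set 2. With the number of mice per pool as a covariate, 1831 genes passed against naive cells. Of the 1312 calls, 908 were kept in the same direction. The median difference over all genes was then 0.57. Under that setting 19 named genes lost their call, Adam8, Dapl1, Ebi3 and Cd74 among them. Why the counts moved was not tested, beyond the fewer arrays in some fits.

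Same-numbered Venus-low and naive arrays deviated together from their group means (r = 0.755 for number 1 and 0.877 for number 2), but 2 pairs are too few to settle a pairing. In these groups the numbers run with the array sets, whereas PD1-low 1 lay in set 2 and PD1-low 2 in set 3. With the replicate number as a block on the 5 arrays, 519 genes and 137 list members passed against naive cells; with the block on all 12 arrays, 2360 passed against PD1-low and 262 against Venus-high cells.

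Among genes that did not pass, Cd3d differed by -0.11 after centring, and Ighm by 7.07 when all its kept probe sets were averaged and by 2.11 when all were summed. Signals below log2 5 were treated as near background, so folds against such values are lower bounds.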
